A study of Mus musculus with 12 samples.

Results

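Gdf15, Fgf21, Adm2, Adm and Metrnl encode hormones and cytokines that stressed tissues release, and their transcripts were followed here in mouse hearts that lack the mitochondrial RNase P nuclease MRPP3. The members were chosen by gene symbol, and all 5 were found, each as a locus with a single name, among the 44450 loci of the deposited tables. They were proposed with the knockout and control values of these libraries known, so their differences between the groups are given as a description with no test. Total RNA was sequenced from whole hearts of 11-week-old C57BL/6N mice, with 3 control libraries (Mrpp3 loxP/loxP) and 3 knockout libraries (Mrpp3 loxP/loxP, +/Ckmm). All mice carried the loxP-flanked gene, and Ckmm stands for the muscle creatine kinase promoter, which in such lines drives the Cre recombinase in heart and skeletal muscle. Endothelium, fibroblasts and immune cells of the same hearts are therefore not targeted, and the Cre transgene, carried by the knockouts alone, cannot be told apart from the loss of MRPP3. The labels number the samples as replicates and do not state that they are separate animals, so p-values below measure only the spread between these samples, which may be in part technical. The 6 mitochondrial RNA-end (PARE) libraries of the series were not analysed here.

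When mitochondrial translation or respiration fails, cells switch on the integrated stress response, in which kinases of the initiation factor eIF2 raise the translation of the transcription factor ATF4. GDF15 is a distant member of the TGF-beta superfamily that acts on the brainstem receptor GFRAL with its signalling partner RET and lowers food intake. FGF21 is an endocrine fibroblast growth factor, made mainly by the liver in healthy animals, that needs the coreceptor beta-Klotho (Klb) beside an FGF receptor, and both hormones are used as blood markers of mitochondrial disease. Adrenomedullin (Adm) and adrenomedullin 2 or intermedin (Adm2) are vasodilator peptides of the calcitonin family, which bind the receptor Calcrl paired with a receptor activity-modifying protein (Ramp1 to Ramp3). Meteorin-like (Metrnl) is a secreted protein of muscle, fat and immune cells.

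Prorp, the gene of MRPP3 (listed as 1110008L16Rik), checked the labels. The controls read 3.49, 2.64 and 3.23 FPKM against 0.441, 0.701 and 0.555 FPKM across knockouts, so every library matched its label. FPKM are fragments per kilobase of transcript, by definition scaled to the mapped fragments, and any further scaling between libraries is not stated. The files give no read totals. From the most frequent ratio between low values, the knockout libraries were estimated to be 2.06 to 2.57 times as deep as control replicate 1. The other controls were estimated at 1.32 and 1.35 times, so a 0 is less certain in a control. Of the 372 to 428 loci used per library, 74 to 95 lay at that ratio, and they are assumed to hold equal numbers of fragments. Knockout replicate 2 stood apart. Its 6 atrial muscle markers summed to 3876 FPKM, against 130.0 and 13.2 in the other knockouts and 13.5 to 20.9 in controls. Its 5 erythroid markers summed to 21895 FPKM, against 622 to 2902 in all other libraries. Its 8 cardiomyocyte markers summed to 7804 FPKM, against 15661 and 17194 in the other knockouts and 32980 to 38241 in controls. Of the cardiomyocyte markers 6 were lower in the knockout and none rose (limma, adjusted p under 0.05). In bulk tissue, fewer cells of a type and less RNA per cell cannot be told apart. Values for the hormones are given below with and without that library where it moved them.

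The windows of 250 bases upstream of the start sites of Fgf21, Gdf15, Adm2 and Adm are shown because the first of these genes carries letters of an ATF4 element, while the other windows, from genes that were also higher in the knockout, do not. Sequences are from RefSeq annotation on GRCm38.p6, read 5′ to 3′ on the strand of the gene, and all 5 members had at least 1 window. Capitals mark matches to any of 5 motifs, searched after the sequences had been seen.
Fgf21, chr7:45615491-45615740, minus strand: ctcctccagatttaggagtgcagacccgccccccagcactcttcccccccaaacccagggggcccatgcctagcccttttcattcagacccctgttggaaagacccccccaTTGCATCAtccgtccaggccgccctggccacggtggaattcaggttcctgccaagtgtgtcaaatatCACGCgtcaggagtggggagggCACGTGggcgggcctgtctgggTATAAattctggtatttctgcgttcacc
Gdf15, chr8:70632457-70632706, minus strand: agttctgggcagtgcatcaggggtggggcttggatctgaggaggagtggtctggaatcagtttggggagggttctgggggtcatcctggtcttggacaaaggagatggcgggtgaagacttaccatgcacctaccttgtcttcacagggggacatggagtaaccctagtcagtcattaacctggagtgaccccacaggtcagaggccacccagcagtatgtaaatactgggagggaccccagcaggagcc
Adm2, chr15:89322470-89322719, plus strand: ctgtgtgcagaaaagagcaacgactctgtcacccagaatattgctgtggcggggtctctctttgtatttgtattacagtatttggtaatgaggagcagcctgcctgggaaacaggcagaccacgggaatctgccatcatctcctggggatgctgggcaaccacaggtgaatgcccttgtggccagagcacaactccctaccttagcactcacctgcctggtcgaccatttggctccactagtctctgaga
Adm, chr7:110627407-110627656, plus strand: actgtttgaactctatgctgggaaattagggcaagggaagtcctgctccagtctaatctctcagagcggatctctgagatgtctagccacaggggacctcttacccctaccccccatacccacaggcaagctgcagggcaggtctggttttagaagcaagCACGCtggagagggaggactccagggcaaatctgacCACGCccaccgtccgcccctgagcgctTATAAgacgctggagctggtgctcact
The composite element bound by ATF4 with a C/EBP partner was searched as TGATGNAA on both strands. It was found in the Fgf21 window at positions -139 to -132 from the start site, as TTGCATCA on the strand shown, and in no other window of the 5 genes. Of 32851 upstream windows of mouse genes, 3.45% hold a match. The E-box CACGTG occurs in the Fgf21 window at -50 to -45 and in the window of a second, downstream start site of Gdf15 at -83 to -78, and 6.02% of all windows hold it. The 30 bases around the E-box of each gene, written with the E-box in capitals, show its flanks side by side.
Fgf21, chr7:45615523-45615552, minus strand: gagtggggagggCACGTGggcgggcctgtc
Gdf15, chr8:70632161-70632190, minus strand: cacagggcagggCACGTGtgagcatccagt
The hypoxia response element core was searched as ACGTG (16.6% of windows, and contained in the E-box) and as GCGTG (28.2%). The Adm window holds GCGTG on the opposite strand at -90 to -86 and at -54 to -50, the Fgf21 window holds it once at -72 to -68, and the Metrnl window once at -182 to -178. A TATAA core on the gene's strand, present in 16% of windows, lies at -28 to -24 in Fgf21 and at -27 to -23 in Adm. A match is a string of letters and not a measured binding site, and a window without a match says nothing about the factor.

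Gdf15 was the most abundant of the hormone transcripts in the knockout and nearly silent in the controls. Gdf15 (locus XLOC_037470, chromosome 8, 70629393 to 70632470 on GRCm38.p6) read 0.221, 0.334 and 0.328 FPKM in control hearts, against 56.2, 18.7 and 111 FPKM in knockout hearts. Every knockout library was far above every control, while the knockouts themselves differed 5.95-fold from the lowest, replicate 2, to the highest, replicate 3. The means were 0.295 ± 0.0637 and 62.0 ± 46.5 FPKM (SD, n = 3), a ratio of 210. On the log2(FPKM + 0.5) scale, which shrinks changes of low genes, the difference was 5.96 (SE 0.74). In terms of place in the library, 77.7 to 84.5% of the loci above 0 were higher than Gdf15 in the controls, and 2.58 to 13.1% in the knockouts. Without knockout replicate 2 the knockout mean was 83.7 FPKM (log2 difference 6.65), and without knockout replicate 3 it was 37.4 FPKM (5.38).

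Fgf21 went from the edge of detection to a low but clear level. Fgf21 (XLOC_035180, chromosome 7, 45613890 to 45615490) read 0, 0.0886 and 0 FPKM in control hearts, against 2.78, 1.87 and 13.3 FPKM in knockout hearts. All knockouts were above all controls, and replicate 3 held most of the signal, at 4.77 times replicate 1 and 7.08 times replicate 2. The means were 0.0295 ± 0.0512 and 5.97 ± 6.33 FPKM (SD, n = 3), and the log2 difference was 3.17 (SE 0.78). Without knockout replicate 3 the knockout mean was 2.32 FPKM and the log2 difference 2.40, and without knockout replicate 2 they were 8.02 FPKM and 3.67. The difference also depends on the pseudocount, with 5.10 at 0.1 and 2.38 at 1, because the controls are at or near 0. Liver is the usual source of circulating FGF21. The 6 hepatocyte markers summed to 0.119 to 0.225 FPKM in the controls and 0.371 to 2.47 FPKM in the knockouts. Albumin (Alb) was listed at 0 in 4 of the 6 libraries, and Fgb at 0 in all. In knockout replicate 2, which had the highest sum, Cyp2e1 made up 2.35 of the 2.47 FPKM. The part of liver RNA in the Fgf21 value was not tested.

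Adm2 was listed above 0 in the knockout hearts only. Adm2 (XLOC_012896, chromosome 15, 89322720 to 89324731) had no signal in any of the 3 controls, which are listed at 0, against 6.15, 4.45 and 8.38 FPKM in knockout hearts, a mean of 6.32 ± 1.97 (SD, n = 3). No fold is given against a group listed at 0. It was the steadiest of the induced hormones, with a 1.88-fold range across the knockouts. Without knockout replicate 2 the mean was 7.26 FPKM. Its order across them, replicate 3 above 1 above 2, was also that of Gdf15 and Fgf21.

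Adm, the other adrenomedullin, was already present in control hearts and changed little outside a single library. Adm (XLOC_034103, chromosome 7, 110627657 to 110629820) had 3.83, 2.84 and 4.80 FPKM in the controls and 4.95, 27.6 and 6.66 FPKM in the knockouts. The lowest knockout lay just above the highest control, and knockout replicate 2 lay 5.57 times above replicate 1. The means were 3.82 ± 0.980 and 13.1 ± 12.6 FPKM (SD, n = 3), a log2 difference of 1.28 (SE 0.76). Without knockout replicate 2 the log2 difference was 0.56 and the knockout mean 5.80 FPKM. That library is the one with the high atrial and erythroid markers. All 6 atrial markers, Myl7, Myl4, Sln, Dkk3, Bmp10 and Stard10, were highest there, with Myl7 at 911 FPKM against 0.0961 and 43.5 in the other knockouts. The 6 epicardial markers summed to 21.1 FPKM there against 2.96 to 3.8 in the other libraries. The part of these tissues in the Adm value was not tested. Endothelium is a known source of adrenomedullin, and its 8 markers summed to 338 to 377 FPKM in controls and 305 to 387 in knockouts, with none past the test. Its part in the Adm value was not tested either.

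Metrnl went the other way. Metrnl (XLOC_006291, chromosome 11, 121702427 to 121717389) had 8.14, 8.05 and 9.74 FPKM in the controls and 4.56, 6.37 and 4.64 FPKM in the knockouts. Each knockout was below each control, and the knockout range was narrow, 1.39-fold. The means were 8.64 ± 0.954 and 5.19 ± 1.02 FPKM (SD, n = 3), a log2 difference of -0.69 (SE 0.17), which was -0.84 without knockout replicate 2. Macrophages are a known source of the protein. Of 10 macrophage markers 7 were higher in the knockout and none lower, and their sum was 99.7 to 104 FPKM in controls and 157 to 180 FPKM in knockouts. Their part in the Metrnl value was not tested.

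**Figure D1:**
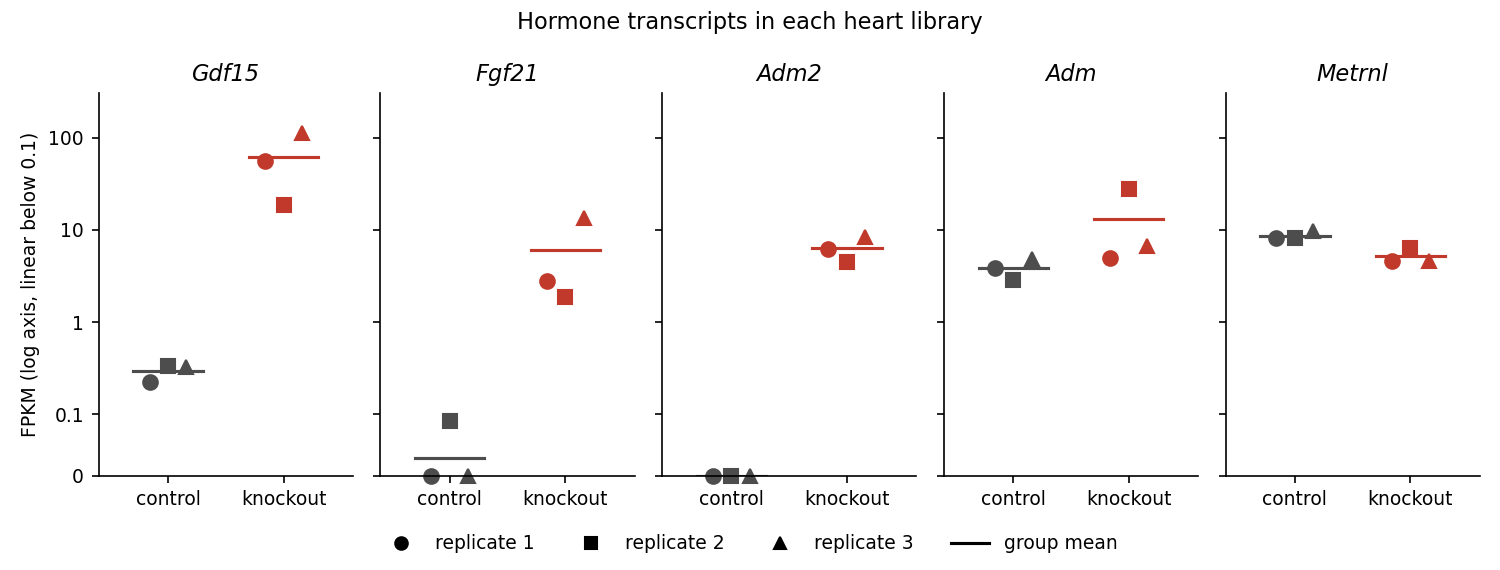
FPKM of the 5 hormone genes in each library (vertical axis logarithmic above 0.1 and linear below), with symbols for the replicates and a bar for the mean of each group of 3. Gdf15, Fgf21, Adm2 and Adm lie higher in every knockout than in any control, with Adm raised mainly in knockout replicate 2, and Metrnl lies lower.

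Taking the genes side by side on the FPKM scale, which is per length, the order of the hormones turned over between the groups. In controls Metrnl led, followed by Adm, Gdf15, Fgf21 and Adm2, and the ranges of the first 3 did not overlap. In knockouts Gdf15 led and the means of the next 4 genes, from 13.1 (Adm) through 6.32 (Adm2) and 5.97 (Fgf21) to 5.19 (Metrnl), differed by less than their spread. Among the knockouts, replicate 2 was the exception, where Gdf15 (18.7 FPKM) stood below Adm (27.6 FPKM). The 5 transcripts summed to 12.8 ± 1.86 FPKM in controls and 92.5 ± 45.3 in knockouts (SD, n = 3). Metrnl made up 65.5 to 71.2% of that sum in each control, and Gdf15 made up 75.3, 31.7 and 77.1% of it in the knockouts. Of the 5 genes, 4 had every knockout above every control and 1 every knockout below. Of the 12181 loci tested, which had 1 FPKM or more in 3 or more libraries, 23.6% and 28.7% did so. All 5 members passed this filter on low values, but Gdf15, Fgf21 and Adm2 passed it through the knockouts alone, and a locus that passes in this way has to differ between the groups.

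Within the knockout group the hormones did not all vary together. Gdf15, Fgf21 and Adm2 were highest in replicate 3 and lowest in replicate 2, while Adm and Metrnl were highest in replicate 2. The order 3, 1, 2 was common, being shared by 29.1% of all tested loci and by 34.5% of those that were higher in the knockout. Summed cardiomyocyte markers had the same order (17194, 15661 and 7804 FPKM), and their part in the order of the hormones was not tested. The spread was far wider for Fgf21 and Gdf15 than for those markers, but narrower for Adm2, as the plot of the spread among knockout libraries shows. In log2 FPKM relative to the knockout mean, Adm2 ran from -0.46 to 0.45 and the summed cardiomyocyte markers from -0.71 to 0.42.

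**Figure D2:**
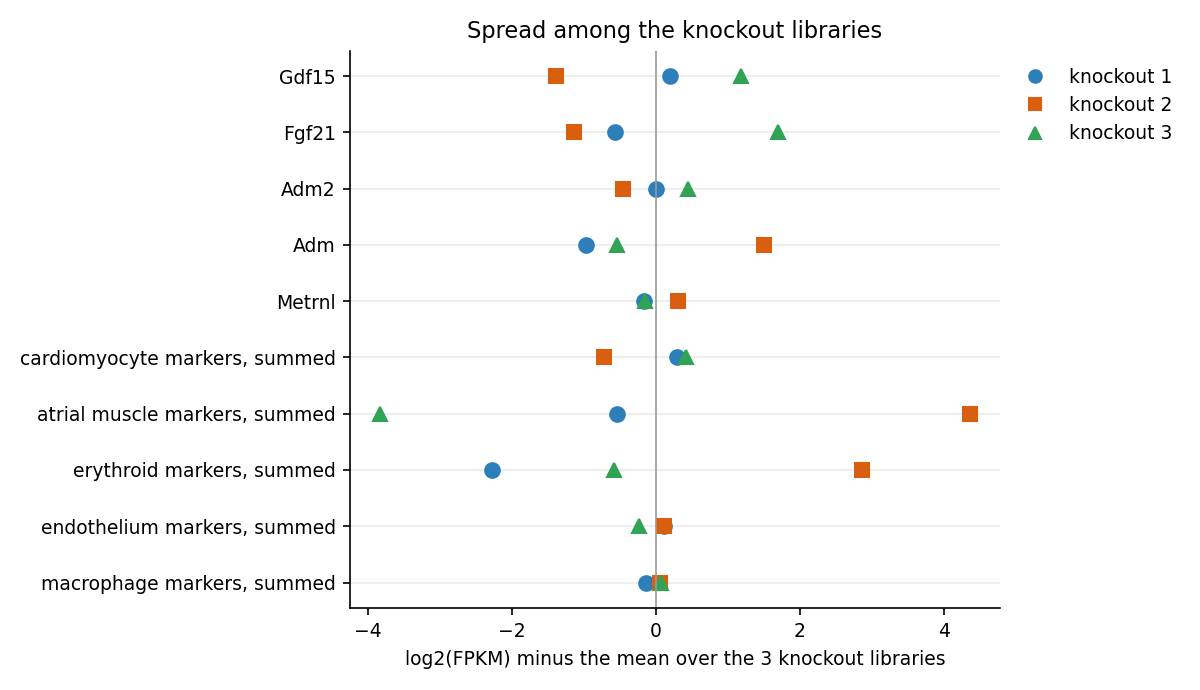
Log2 FPKM of each hormone, and of summed cell type markers, in the 3 knockout libraries relative to their mean (horizontal axis). Knockout replicate 2 is lowest for Gdf15, Fgf21 and Adm2 and highest for Adm, Metrnl and the atrial and erythroid markers.

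The transcripts whose pattern over the 6 libraries was most like each hormone were named by Pearson's r of log2(FPKM + 0.5), as a description. Except for Adm, such likeness is mostly the difference between the groups, which these libraries share. It is not rare: 751, 556 and 775 loci had r of at least 0.95 with Gdf15, Fgf21 and Adm2, but only 60 with Adm and 142 with Metrnl. Closest to Gdf15 were Flnc (filamin C, an actin crosslinker of muscle, r = 0.9997), Atp6v1h (a subunit of the lysosomal proton pump, r = 0.9997) and Ddx41 (r = 0.9993). Closest to Fgf21 were Ninj1, Adam9 and Arrdc4 (r = 0.9981, 0.9975 and 0.9967). Closest to Adm2 were Vmn2r3 (annotated as a vomeronasal receptor, r = 0.9998), Mif (macrophage migration inhibitory factor, r = 0.9993) and Ostn (osteocrin, a secreted peptide that slows clearance of natriuretic peptides, r = 0.9991). Vmn2r3 was at 0.0357, 0 and 0 FPKM in controls and 8.92, 6.17 and 13.2 in knockouts. Adm came closest to Spns2 (the exporter of sphingosine 1-phosphate, r = 0.9940), 2810410L24Rik and Creb3l2, and Metrnl to Ablim3 (r = 0.9978), Gm37206 and Atxn7l3b. The loci closest to Adm stood out, as Adm did, in knockout replicate 2. Spns2 had 3.04, 2.68 and 3.11 FPKM in controls and 3.38, 5.64 and 3.45 in knockouts. The group means were then removed, so that only the spread within groups counted. The nearest were Gpd1 for Gdf15 (r = 0.9997), Pcyt2 for Fgf21 (r = 0.9995), Tfb2m for Adm2 (r = 0.9995), Unc5b for Adm (r = 0.9995) and Ablim3 for Metrnl (r = 0.9944). This likeness was not rare either, with 698, 318, 586, 126 and 74 loci at r of at least 0.95, in the same order of hormones. Adm2, at 0 in all controls, varied within the knockout group alone, and Gdf15 and Fgf21 varied almost only there. A high r for any of these hormones therefore rests on few libraries.

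The receptors through which these hormones act were next compared in the same hearts. Of the 17 listed receptor and coreceptor genes 11 were tested, of which 3 were higher, 3 lower and 5 did not pass, with a median log2 difference of 0.16 against -0.02 over all loci. Among all 12181 loci, 16.1% were called higher and 19.5% lower, 35.7% in all (limma, adjusted p under 0.05). The 3 lower calls held in every alternative tried. The 3 higher ones did not: 0 remained without control replicate 1 or control replicate 3, and 1 without control replicate 2, knockout replicate 1 or knockout replicate 3.

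Gfral, Klb and Fgfr4 were at or near 0, while other FGF receptors were present. Gfral was listed at 0 in all 6 libraries. Ret, its signalling partner, had 1.59, 1.34 and 1.49 FPKM in controls and 0.224, 0.103 and 0.40 in knockouts, and was lower (log2 -1.43, SE 0.21, limma adjusted p = 0.0028). Klb, the coreceptor that FGF21 requires, was at most 0.0411 FPKM in controls and 0.0527 in knockouts, too low to be tested, and Fgfr4, an FGF receptor of liver, was at most 0.0428 FPKM in any library. Fgfr1, the FGF receptor with the best known role in FGF21 signalling, had 7.72 ± 1.56 and 8.63 ± 1.14 FPKM and did not pass (limma adjusted p = 0.48). Fgfr3 had 2.80, 3.78 and 2.93 FPKM in controls and 6.63, 4.32 and 9.40 in knockouts. Its rise (log2 0.94, limma adjusted p = 0.027) was lost without control replicate 1, control replicate 3, knockout replicate 1 or knockout replicate 3 (adjusted p = 0.086, 0.084, 0.070 and 0.050, the last just above the threshold before rounding), with the replicate block (0.052) and with no filter (0.065). Fgfr2 shares a locus with Ctbp2 and cannot be read on its own.

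On the adrenomedullin side, Ramp1 and Ackr3 were lower in every alternative tried, while Calcrl and Ramp3 did not pass. Calcrl, the shared receptor, had 12.9, 11.3 and 11.7 FPKM in controls and 11.3, 10.1 and 7.75 in knockouts, groups that overlapped (log2 -0.30, limma adjusted p = 0.17). Ramp1, which makes Calcrl a receptor for the related peptide CGRP, was lower, with 2.40, 2.83 and 2.28 FPKM in controls and 0.651, 0.705 and 0.561 in knockouts (log2 -1.40, SE 0.16, limma adjusted p = 0.0010). Ramp2, which makes it the main adrenomedullin receptor, lies in a locus merged with Vps25. That locus had 53.5 ± 0.859 and 75.7 ± 5.25 FPKM (SD, n = 3), and its rise (log2 0.50, limma adjusted p = 0.015) was lost without any 1 control (adjusted p = 0.061, 0.067 and 0.063) and with the replicate block (0.054). Ramp3, the partner of the second adrenomedullin receptor, had 1.57 ± 0.417 and 2.59 ± 0.576 FPKM (limma adjusted p = 0.070). Ackr3, an atypical receptor that takes up adrenomedullin and the chemokine CXCL12, was lower, with 12.4, 12.6 and 13.0 FPKM in controls and 7.72, 4.26 and 3.44 in knockouts (log2 -1.30, SE 0.25, limma adjusted p = 0.0076). Crcp, which couples Calcrl to its G protein, had 5.37 ± 0.689 and 7.98 ± 1.44 FPKM (limma adjusted p = 0.041). This call did not hold without control replicates 1, 2 or 3 (adjusted p = 0.11, 0.14 and 0.058) and without knockout replicate 1 or 3 (0.10 and 0.094). Kit, reported as a receptor for meteorin-like, had 1.46 and 1.77 FPKM on average and its groups overlapped.

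**Figure D3:**
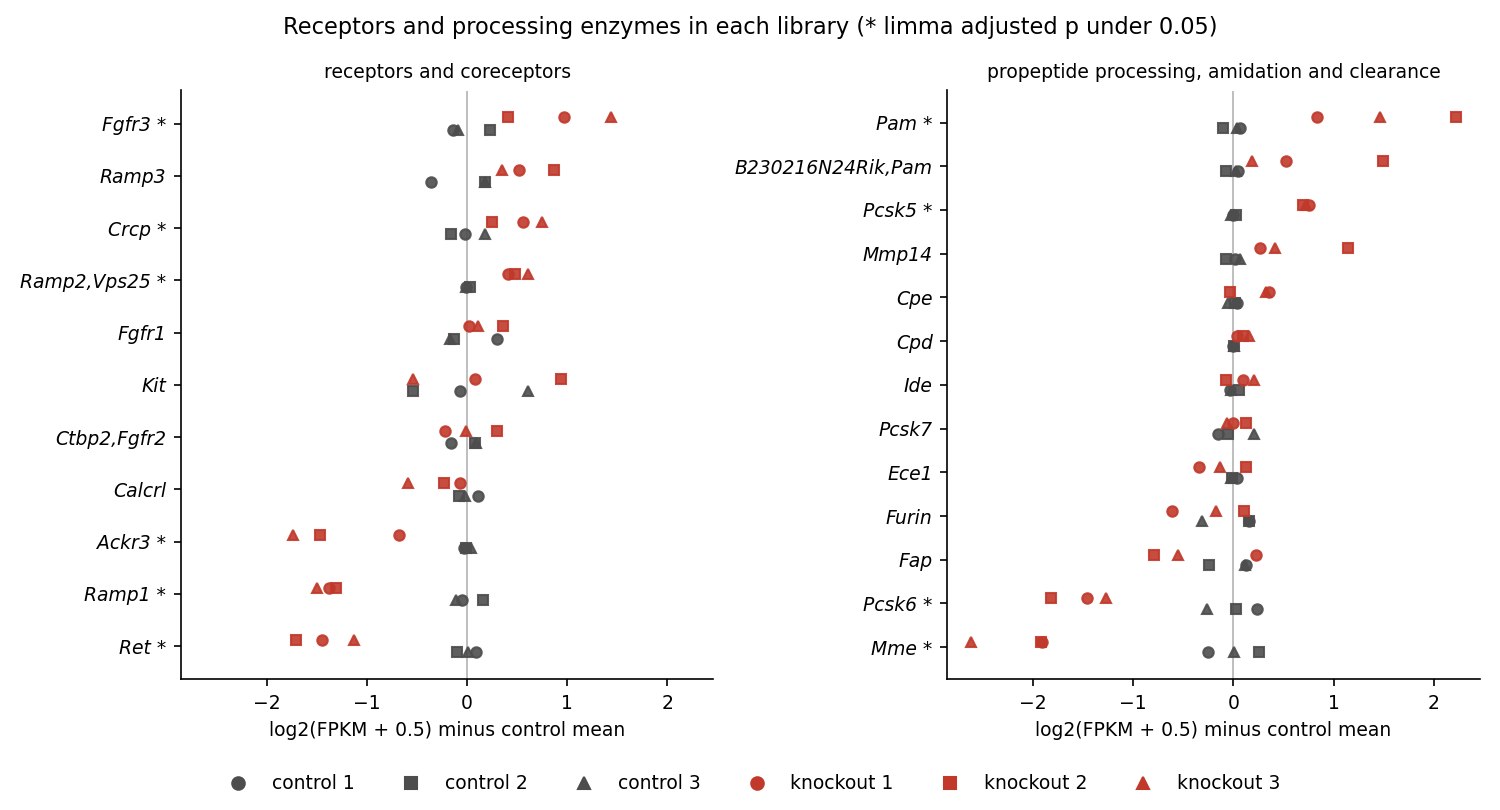
Log2(FPKM + 0.5) of each tested receptor (left) and processing or clearance enzyme (right) in every library, relative to the control mean of that gene. Ret, Ramp1, Ackr3, Pcsk6 and Mme lie lower in all 3 knockouts and Pam lies higher, with its highest value in knockout replicate 2.

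Enzymes that cut, amidate or clear these peptides were measured at 13 tested loci, of which 2 were higher, 2 lower and 9 did not pass (median log2 difference 0.08). Pam, the only enzyme that adds the C-terminal amide that adrenomedullins need for activity, was higher. It had 165, 148 and 162 FPKM in controls and 282, 739 and 439 in knockouts (log2 1.51, SE 0.32, limma adjusted p = 0.011). Pam is abundant in atrial muscle, and knockout replicate 2, with the high atrial markers, was the highest. Without that library the log2 difference was 1.15 (adjusted p = 0.0053). A second locus, which joins Pam with B230216N24Rik, was far lower in level (2.36 ± 0.124 and 4.65 ± 2.56 FPKM) and did not pass (log2 0.74, limma adjusted p = 0.10, and 0.36 without knockout replicate 2). Mme, the neutral endopeptidase neprilysin, which degrades adrenomedullin and natriuretic peptides, was lower, with 2.93, 4.40 and 3.61 FPKM in controls and 0.590, 0.582 and 0.170 in knockouts (log2 -2.15, SE 0.25, limma adjusted p = 0.0010). The convertases that can release mature GDF15 and other TGF-beta family proteins from their precursors differed in direction. Pcsk6 (PACE4) was lower, from 22.4 ± 3.85 to 7.53 ± 1.5 FPKM (limma adjusted p = 0.0013), and Pcsk5 was higher, from 0.573 ± 0.0165 to 1.27 ± 0.0357 FPKM (limma adjusted p = 0.013). Furin had 16.3 ± 2.95 and 14.0 ± 3.56 FPKM and did not pass. Fap, the protease that inactivates FGF21, had 2.12 and 1.6 FPKM on average, with overlapping groups (limma adjusted p = 0.32).

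Among relatives of the hormones, FGF genes made up most of the lower calls. Of 30 listed calcitonin, FGF, meteorin and GDF or activin family genes only 9 reached the level to be tested, of which 6 were lower and 1 higher, with a median log2 difference of -1.05. Of the lower loci 5 were FGF genes, and the other, Inha (the inhibin alpha subunit), lost its call without control replicate 1, 2 or 3 or knockout replicate 3 (adjusted p = 0.094, 0.094, 0.12 and 0.053), with the replicate block (0.071), and with a pseudocount of 0.1, no filter or other scalings (0.050 to 0.11, the lowest just above the threshold before rounding). The one that rose was Inhba, the activin A subunit, from 0.0999, 0.198 and 0.149 FPKM in controls to 3.92, 2.90 and 4.23 in knockouts (log2 2.68, SE 0.19, limma adjusted p = 0.00024). Cardiac FGFs fell: Fgf16 from 8.26 ± 1.30 to 2.25 ± 1.64 FPKM (limma adjusted p = 0.0099), Fgf18 from 1.51 ± 0.380 to 0.356 ± 0.241 (0.010) and Fgf1 from 75.3 ± 5.82 to 32.5 ± 7.15 (0.0028). Without knockout replicate 1 the knockout means of Fgf16 and Fgf18 were 1.33 and 0.217 FPKM. Metrn, the paralog of Metrnl, had 9.67 ± 0.451 and 8.70 ± 0.378 FPKM and did not pass (limma adjusted p = 0.32). The calcitonin relatives Calca, Calcb and Iapp were listed at 0 in all controls, and at most 0.327 FPKM in a knockout.

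Other secreted factors of the heart moved in both directions. Of 23 tested loci 10 were higher, 6 lower and 7 did not pass (median log2 difference 0.42), with 8 higher and 3 lower without any 1 control, and 4 lower without knockout replicate 1. Nppa and Nppb, the natriuretic peptides, rose from 72.2 ± 41.8 to 4934 ± 4848 FPKM and from 101 ± 70.4 to 762 ± 364 FPKM (limma adjusted p = 0.0011 and 0.012). Nppa was highest in knockout replicate 2 (10527 FPKM), as Adm was, and without that library its knockout mean was 2137 FPKM and its log2 difference 5.02 instead of 5.79 (limma adjusted p = 0.00054). Nppb was lowest in the same library among the knockouts (404 FPKM). Ostn, listed at 0, 0.0538 and 0 FPKM in controls, had 11.9, 9.42 and 21.5 in knockouts (limma adjusted p = 0.00012). Lcn2, an iron-binding protein of innate immunity, had 0.955, 1.27 and 1.51 FPKM in controls and 8.81, 8.76 and 57.7 in knockouts (limma adjusted p = 0.0084), and its highest library, replicate 3, was also that of Gdf15 and Fgf21. Without it the knockout mean of Lcn2 was 8.79 FPKM instead of 25.1. Among the lower loci, Il15 and Fndc5 kept their calls in all 15 alternatives. Their log2 differences ranged there from -2.71 to -2.26 and from -1.55 to -1.18. The calls of Manf (in a locus merged with Rbm15b), Cdnf, Vegfa and Vegfb were each lost in some alternatives.

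Genes of the pathways known to control the hormones were then counted. The ATF4 and integrated stress response list, with 29 tested loci, had 18 higher, 3 lower and 8 not passing, and a median log2 difference of 2.12. Part of this list had been seen in earlier results of these data, so its direction is not independent evidence. Asns, Mthfd2, Phgdh and Trib3 had the largest differences (log2 6.26, 6.05, 5.31 and 5.20, limma adjusted p from 1e-06 to 4.9e-05). Atf4 itself rose from 37.1 ± 2.69 to 169.5 ± 63.0 FPKM (limma adjusted p = 0.0010), with 135, 132 and 242 FPKM in the knockouts. Dele1 and Oma1, which relay mitochondrial stress to this response, were lower, by log2 differences of -1.26 and -1.0 (limma adjusted p = 0.00062 and 0.0038). The number lower was 4 without knockout replicate 3 and 2 without any other single library. The order of Gdf15, Fgf21 and Adm2 across the knockouts was found in 9 of the 29 loci, 31%, near the 29.1% of all loci. Genes were put on this list as members of the response, so its share of ATF4 elements is not independent evidence either. Of the 25 listed genes with an upstream window, 7 held TGATGNAA (28.0%). Of these 7, Asns, Chac1, Nupr1, Slc7a11 and Atf3 were higher, Vldlr was lower and Herpud1 did not pass. The calls of Atf3 and Vldlr were lost without control replicate 1 or 2, and further left-out libraries. The element was in the windows of 3.91% of all 27025 genes with a window, and, among singly named tested genes, of 3.47% of the 1382 higher, 2.17% of the 1518 lower and 2.1% of the 5230 not called.

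PPAR alpha, the fatty acid-sensing receptor that induces Fgf21 in the fasting liver, was lower. Of 17 tested loci of its axis 6 were lower, 1 higher and 10 did not pass (median log2 difference -0.36). Ppara fell from 22.9 ± 0.949 to 6.89 ± 1.55 FPKM (limma adjusted p = 0.00063), its partner Rxrg from 32.1 ± 3.39 to 11.0 ± 3.50 (0.0026) and its coactivator Ppargc1a from 48.6 ± 17.8 to 17.8 ± 1.66 (0.0048). The lower count was 4 without control replicate 1 or 2, and the higher count, of Cpt1a, was 0 without any 1 control or knockout replicate 1 and 2 without knockout replicate 2.

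The hypoxia list, whose transcription factors are known to induce Adm, split evenly, with 6 of 20 tested loci higher, 6 lower and 8 not passing. Slc2a1 (the glucose transporter GLUT1) rose from 3.62 ± 0.395 to 15.6 ± 5.78 FPKM and Hif1a from 26.9 ± 1.58 to 69.3 ± 17.7 (limma adjusted p = 0.0016 and 0.0028). Ankrd37 fell from 4.61 ± 0.776 to 1.23 ± 0.0501 FPKM and Egln1, an oxygen sensor, from 66.3 ± 9.15 to 27.2 ± 5.21 (limma adjusted p = 0.00060 and 0.0023). The count of higher loci was 3 without control replicate 1, and that of lower loci 3 without control replicate 2 or 3 or knockout replicate 1. In this list 2 of the 20 loci, or 10.0%, were highest in knockout replicate 2, as Adm was, against 31.1% of all tested loci. The knockout order of Gdf15, Fgf21 and Adm2 was found in 11 of the 20, or 55%, against 29.1% of all tested loci. What these shares mean for the hormones was not tested.

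Genes that respond to ERK, the kinase downstream of FGF receptors, were higher at 5 of 12 tested loci and lower at none (7 did not pass, 1 was not tested, median log2 difference 0.24). Dusp4 (an ERK phosphatase) had 0.452, 0.499 and 0.620 FPKM in controls and 6.71, 3.81 and 12.8 in knockouts (log2 2.87, SE 0.37, limma adjusted p = 0.0016). Its knockout order was that of Gdf15, which was found in 3 of the 12 loci, or 25%, against 29.1% of all tested loci. Dusp6 had 7.34 ± 0.889 and 12.1 ± 0.206 FPKM (limma adjusted p = 0.0049). The calls of Egr1, Fos and Etv5 (log2 2.42, 2.02 and 1.21, limma adjusted p = 0.025, 0.021 and 0.021) were lost without any 1 control (adjusted p from 0.052 to 0.083). Those of Egr1 and Fos were also lost without knockout replicate 1 (0.077 and 0.059), and that of Egr1 without knockout replicate 2 (0.051). The number of higher loci was 2 without any 1 control and 3 without knockout replicate 1.

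**Figure D4:**
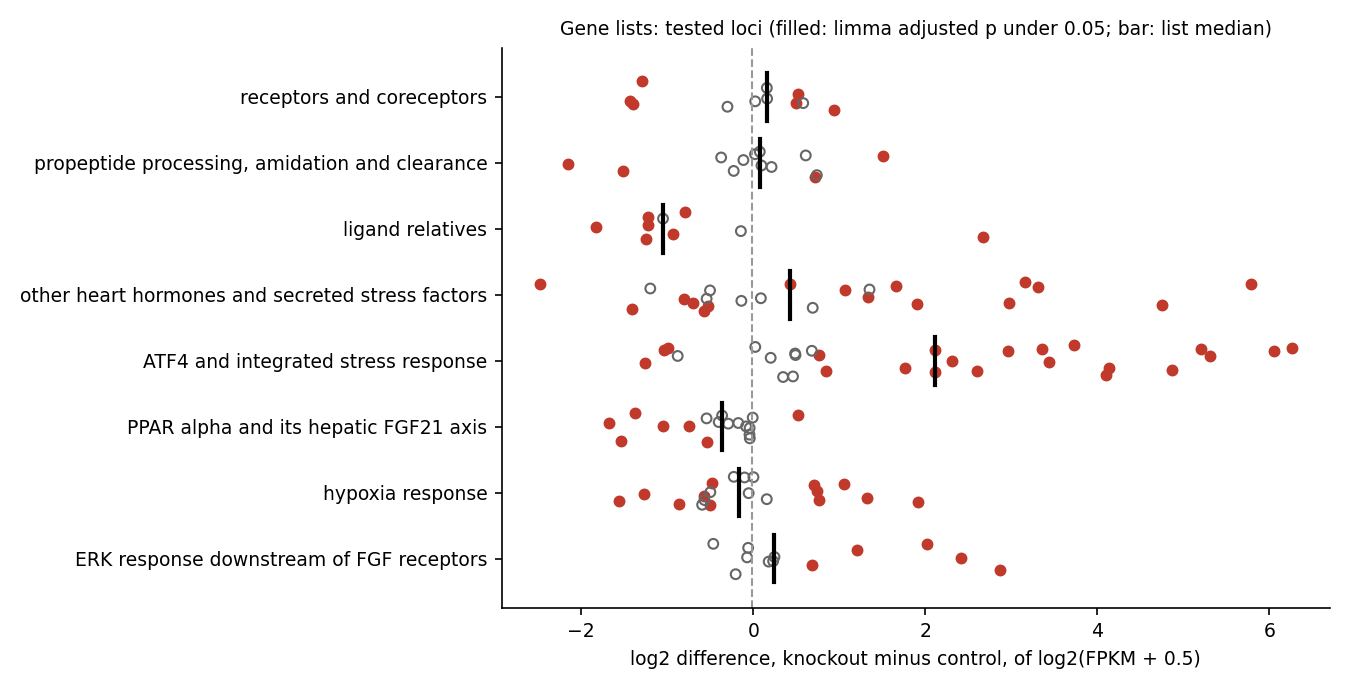
Log2 differences, knockout minus control (horizontal axis), of all tested loci of the 8 gene lists, with filled points past a limma adjusted p of 0.05, bars at the list medians and a dashed line at the median of all 12181 loci. The list of ATF4 and the integrated stress response has the highest median, 2.12, and ligand relatives the lowest, -1.05.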

How the data were processed

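Expression was measured in 6 total RNA libraries, made with random primers after rRNA removal per the labels' protocols. The deposited values are FPKM per locus, 1 library per file, per the file headers. Per the submitters' processing notes, tools include HISAT 0.1.6, StringTie 1.1.0, Cufflinks 2.2.1 and Cuffdiff, with builds GRCm38 and mm10. What each did, the annotation, any scaling between libraries and the handling of strand are not stated in those notes or the labels. FPKM are not counts, and depth was estimated only relative to control replicate 1, from the most frequent ratio of values under 1 FPKM at loci annotated neither as coding nor as lncRNA, so no counting interval is given.

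Groups and replicate numbers came from the source names. Values were analysed as log2(FPKM + 0.5) over the 12181 loci that reached 1 FPKM in 3 or more libraries. The groups were compared with limma 3.58.1 in R 4.3.3 (two-sided, variance prior following the mean), and p-values were adjusted by Benjamini-Hochberg over all these loci, with calls under 0.05. The fit was tested on simulated data. The 5 members received no test, and their SE is from the pooled spread of the 2 groups. The members and the 8 gene lists were chosen with earlier results of these data known. From each list the 4 loci past the threshold with the largest change were named, or the 2 most abundant where none passed, with all receptors allowed, and the 3 single-name loci most like each member. Other list genes, and the 13 marker lists' genes, were named after their values were seen. Marker lists with no loci tested were lymphocyte, adipocyte, hepatocyte and lung epithelium. The others had 4 of 7 fibroblast markers higher, and 2 of 7 mural cell markers higher and 2 lower, with all of these tested. Only 4 of 6 atrial markers were tested, of which 1 was higher. Of 6 neutrophil and 6 epicardial markers, 2 each were tested and none was called. Alternatives were other pseudocounts, filters, scalings, a replicate block, array weights, no variance trend and each library left out.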

Additional observations from a re-analysis of the deposited data

How the results depend on the processing

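With 1 library left out, the log2 differences ranged from 5.38 to 6.65 for Gdf15, 2.40 to 3.67 for Fgf21, 0.56 to 1.74 for Adm and -0.84 to -0.61 for Metrnl, and the knockout mean of Adm2, which leaving out a control cannot move, from 5.30 to 7.26 FPKM. A pseudocount of 0.1 gave 6.97 for Gdf15 and 5.10 for Fgf21. Scaling to one sum gave a knockout mean of 13.1 for Adm2, with its controls still at 0. That mean is in another unit and cannot be set beside the means in FPKM. Each library was set to a sum of 1000000, while the deposited knockout values sum to 456493 to 516068. Over all loci, scaling to one sum gave 3229 higher and 1400 lower (69.8% of calls higher, against 45.3%) and moved the median log2 difference from -0.02 to 0.20. Without 1 library the counts over all loci ran from 1212 to 2153 higher and from 1409 to 2389 lower. Array weights gave 2857 and 3367, and no filter 1801 and 2126.

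Of 77 called loci in the lists, 54 kept their call in all 15 alternatives. With 1 library left out, higher and lower calls ranged from 0 to 3 and 3 to 3 for receptors, 2 to 3 and 2 to 2 for processing, 1 to 1 and 5 to 7 for relatives, 8 to 11 and 3 to 7 for other secreted factors, 17 to 20 and 2 to 4 for the ATF4 list, 0 to 2 and 4 to 8 for the PPAR alpha axis, 3 to 6 and 3 to 7 for hypoxia and 2 to 5 and 0 to 0 for ERK. With no filter, receptors had 1 higher, relatives 3 higher and ERK 2 higher. Scaling to one sum gave 5 higher for processing, 2 lower for secreted factors and 3 lower for hypoxia. Array weights gave 4 higher and 4 lower for processing and 1 lower for ERK.

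Samples share replicate numbers but the labels do not say that they share an animal, litter or day. The deviations of same-numbered libraries correlated at -0.08 to -0.01, and 0 libraries correlated best with their own number. With the replicate block, 1536 loci were higher and 1807 lower, receptors had 1 higher and hypoxia 3 lower. Depth limits mainly the controls of Fgf21 and Adm2, whose listed zeros come from the libraries estimated to be shallower.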
